A study of Homo sapiens with 4 samples.

Results

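In HL-60 cells, 6132 promoter regions carried an ATAC-seq peak in all 4 libraries and held similar score ranks in ATRA-treated and control cells. They are called constitutive promoter regions here. The peaks of the 4 deposited lists were merged into 78046 regions, of which 23654 held a peak from every list. A region was kept when its centre lay between 1000 bp upstream and 100 bp downstream of a protein-coding transcription start, which left 6942 regions, and when the ATRA and control ranges of score percentile lay less than 10 points apart. The percentile is the position of the highest peak of a region within its own list, where 100 is the highest score. The members were thus selected on their presence in all lists and on their score ranks. The 6132 members were 88.3% of the promoter regions shared by all lists (Wilson 95% interval 87.6 to 89.1%) and 7.86% of all merged regions. Every rank, width or list count below is a description with no test, since the same lists chose the members, and the Wilson intervals cover counting error across regions only, not the spread between cultures.

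HL-60 is an established human line of promyelocytic leukaemia, which all-trans retinoic acid (ATRA) drives towards granulocytes. ATRA cells received 1 µM ATRA dissolved in ethanol for 4 days, and control cells received an equal volume of ethanol for the same time. Both groups are cultures of this single cell line, with 2 replicates each, and no other allele or agent separates them. In ATAC-seq the Tn5 transposase inserts adapters into open DNA, and a peak marks a stretch where insertions pile up.

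The 4 lists held between 42081 and 63541 peaks, covering between 16.3 and 31.6 Mb. The list of ATRA replicate 2 was the longest and its peaks were the widest, with a median of 416 bp against 291 to 328 bp in the other libraries. The number of reads behind each list is unknown, so a missing peak can mean a closed promoter or a list that reached less deep. Of 11 myeloid marker genes, 8 had a promoter region in at least 1 list and 4 in all lists. None of the markers of erythroid (4 genes), epithelial (4), hepatocyte (2) and muscle (3) cells had one, while 1 of 3 T cell markers, CD8A, and 2 of 3 markers of neurons and glia, MBP and GFAP, had one.

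A promoter is the stretch of DNA at a transcription start where RNA polymerase II and the general factors assemble, and in most expressed genes it is kept free of nucleosomes. Most promoters of broadly expressed genes lie in CpG islands, stretches in which the dinucleotide CpG has not been depleted by methylation and decay. Such promoters often hold GC boxes for SP1 and KLF factors, CCAAT boxes for NF-Y, and sites for ETS factors, NRF1 and YY1, whereas many tissue-specific promoters are poor in CpG and rely on lineage factors such as PU.1 in myeloid cells.

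As examples that hold such sites, the 120 bases just upstream of the outermost annotated start are given for 7 members with broadly used genes. Each is read in the direction of transcription from hg19. Other members, such as G3BP1 and SF3B5, had no match to any motif searched in the same stretch. The capitals mark matches to the GC box (GGGCGG), the CCAAT box (CCAAT), the ETS site (CCGGAAGT), the NRF1 site (CGCATGCG), the cyclic AMP response element (TGACGTCA), the ZNF143 site (CTACAATTC), the BANP site (CTCGCGAG) and the TATA box (TATAAA), on either strand. The genes encode a proteasome subunit (PSMA5, chr1:109969071-109969190, minus strand), a Mediator subunit (MED19, chr11:57479694-57479813, minus strand), a splicing factor (SF3B6, chr2:24299244-24299363, minus strand), a subunit of respiratory complex I (NDUFA5, chr7:123197959-123198078, minus strand), leucyl-tRNA synthetase (LARS1, chr5:145562260-145562379, minus strand), a G-patch protein (GPATCH3, chr1:27226959-27227078, minus strand) and a histone H3 (H3C15, chr1:149824050-149824169, plus strand).
PSMA5: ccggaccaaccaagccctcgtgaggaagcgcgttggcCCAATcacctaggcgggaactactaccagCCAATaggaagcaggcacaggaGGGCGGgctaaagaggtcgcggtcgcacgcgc
MED19: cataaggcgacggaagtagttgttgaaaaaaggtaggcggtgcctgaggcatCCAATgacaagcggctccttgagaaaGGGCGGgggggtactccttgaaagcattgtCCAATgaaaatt
SF3B6: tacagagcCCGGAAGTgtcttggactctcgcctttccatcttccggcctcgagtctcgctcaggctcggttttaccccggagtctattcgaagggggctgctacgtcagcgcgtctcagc
NDUFA5: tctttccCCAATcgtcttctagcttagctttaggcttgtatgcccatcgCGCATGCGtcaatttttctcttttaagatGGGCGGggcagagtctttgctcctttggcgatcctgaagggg
LARS1: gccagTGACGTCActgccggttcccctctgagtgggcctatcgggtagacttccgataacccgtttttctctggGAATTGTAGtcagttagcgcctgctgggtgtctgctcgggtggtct
GPATCH3: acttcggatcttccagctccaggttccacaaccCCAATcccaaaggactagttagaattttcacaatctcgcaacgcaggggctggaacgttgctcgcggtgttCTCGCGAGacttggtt
H3C15: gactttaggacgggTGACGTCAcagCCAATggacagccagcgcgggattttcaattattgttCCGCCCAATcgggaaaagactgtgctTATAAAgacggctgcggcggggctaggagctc

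The CpG observed over expected ratio of these 7 stretches lay between 0.709 in LARS1 and 1.03 in SF3B6. The paired CCAAT boxes of PSMA5 began 83 and 54 bases upstream of the start, and its GC box 32 bases upstream. In H3C15 the GC box and the second CCAAT box shared bases, and a TATA box began 32 bases upstream. A match is a run of letters and does not show that a factor was bound.

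The peaks of the members sat over the start and reached further upstream than downstream. Coverage by a peak was highest 80 to 90 bp upstream of the nearest start, where 94.6% of members were covered in ATRA replicate 1, 96.9% in ATRA replicate 2, 94.5% in control replicate 1 and 90.5% in control replicate 2. Coverage stayed above 50% of members from 390 bp upstream to 200 bp downstream in ATRA replicate 1, and from 390 to 190 bp in control replicate 1. The span was wider in ATRA replicate 2 (510 to 300 bp) and narrower in control replicate 2 (350 to 130 bp), so replicates of a group differed more in extent than the replicate 1 libraries of both groups did. At 1000 bp upstream, coverage was down to between 5.77% and 11.6%. The centre of the merged region lay upstream of the nearest start in 75.2% of members (interval 74.1 to 76.2%), with a median position of 73 bp upstream, which the window of the rule favours. In 80.2% of members (4917) the highest peak spanned the start itself in every list.

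**Figure D1:**
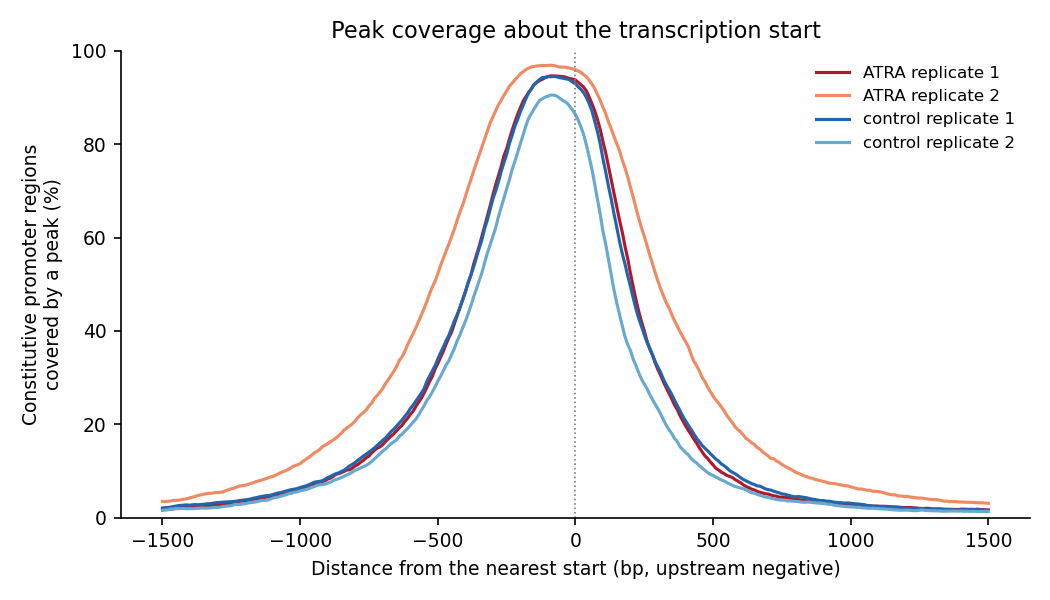
Share of the 6132 constitutive promoter regions (vertical axis, percent) covered by a peak at each distance from the nearest protein-coding start (horizontal axis, bp, upstream negative), 1 line per library. All lines peak 80 to 90 bp upstream of the start, and the ATRA replicate 2 line is the widest.

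The members ranked high in each list. Their median percentile was 88.1 in ATRA replicate 1, 90.6 in ATRA replicate 2, 87.0 in control replicate 1 and 83.2 in control replicate 2. In every list 1731 members (28.2%) stood among the top 10% of peaks, and 97 (1.58%) stood below the median of every list. The 16712 shared regions away from promoters, meaning those whose centre lay outside the start window, ranked lower. Their medians were 59.7, 74.7, 60.4 and 67.5 in the same order of libraries. Promoter regions present in 1 to 3 lists had medians of 43.6, 38.5, 37.3 and 28.2 where they held a peak. The order between these sets held in each of the 4 libraries, although presence in all lists by itself favours high peaks.

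**Figure D2:**
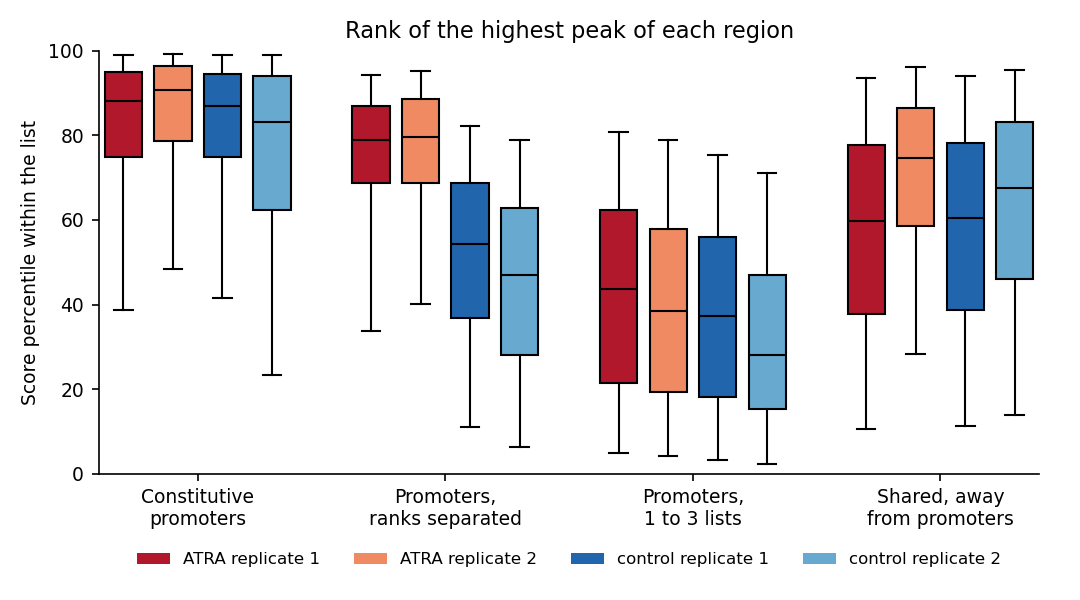
Score percentile of the highest peak (vertical axis, 100 is the top of the list) in constitutive promoters, promoters whose ranks were separated by 10 points or more, promoters in 1 to 3 lists and shared regions away from promoters. Boxes show the quartiles and median and whiskers the 5th to 95th percentiles over regions, coloured by library; the constitutive promoters have the highest median in all 4 libraries, between 83.2 and 90.6.

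Constitutive here means present in every list, and not an equal rank in each library. The 4 percentiles of a member spanned a median of 12.4 points, and 2662 members (43.4%) kept them within 10 points. At the other end, 1356 members (22.1%) spanned 30 points or more and 459 (7.49%) spanned 50 points or more, and these entered because a replicate of a group overlapped with or lay close to the other group. The median absolute difference in percentile was 3.85 between the ATRA replicates, 6.13 between the control replicates and 4.00 to 6.28 between ATRA and control libraries. Pairs across groups thus differed by about as much as replicates did, which the rule favours. The same differences were 12.6 to 16.8 points, over all 6 pairs of libraries, in the shared regions away from promoters, on which the rank condition was not imposed. Those regions also stood lower on the scale, with library medians of 59.7 to 74.7 against 83.2 to 90.6 in the members. Percentiles near the top have less room to differ, so the differences of the 2 sets are not on an equal footing. Across the members, Spearman correlations of percentile between libraries ran from 0.79 to 0.88 (n = 6132 regions, which share the same libraries).

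Among the promoters left out by the rank condition, those higher in ATRA were more numerous. Of the 6942 promoter regions in all lists, 731 (10.5%) ranked higher in ATRA by 10 points or more, against 11.7% of all 23654 shared regions, and 79 (1.14%) ranked higher in control, against 4.62%. Within the members, 1971 (32.1%) had both ATRA percentiles above both control percentiles by less than 10 points, against 17.6% of all shared regions, and 409 (6.67%) had them below, against 8.16%. Both comparisons have unlike bases, since the shared regions include those separated by 10 points or more, which the members lack. In the other 3752 members (61.2%) the ranges overlapped. These percentiles are those the rule used, so the counts are given as a description only. The 810 regions left out had median percentiles of 78.9 and 79.5 in the ATRA libraries and 54.3 and 47.1 in the control libraries. Control replicate 2, in which the members had their lowest median rank, and ATRA replicate 2, with the longest list, move with these counts; their part in them was not tested.

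Just inside the limit, the region of MAN1A1, a Golgi mannosidase of N-glycan trimming, ranked higher in control by 9.998 points. The region of ZNF616, a zinc finger gene, ranked higher in ATRA by 9.994 points. Just outside it, PHC2, a Polycomb protein, and POMZP3 ranked higher in ATRA by 10.007 and 10.010 points. The percentiles of MAN1A1 were 49.7 and 27.1 in ATRA and 59.7 and 63.4 in control. Those of PHC2 were 72.8 and 78.9 in ATRA and 62.8 and 40.6 in control. In both genes replicates of a group stood over 20 points apart, further than the gap between the groups.

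The merged regions of the members had a median width of 892 bp, with 673 to 1184 bp at the quartiles. Taking the highest peak of each member, the median width was 605 and 813 bp in the ATRA libraries (replicates 1 and 2) and 589 and 492 bp in the control libraries. Shared regions away from promoters were narrower in each library, with medians of 344, 524, 345 and 332 bp. Promoter regions in 1 to 3 lists were narrower still (336, 426, 315 and 262 bp). In 2519 members (41.1%) both ATRA peaks were wider than both control peaks, against 37.4% of all shared regions. The reverse held in 87 members (1.42%), against 3.73%. The wider peaks of ATRA replicate 2, which are a feature of its whole list, move with these counts, and their part was not tested. Most members were simple in shape, with exactly 1 peak in each list in 4916 (80.2%).

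**Figure D3:**
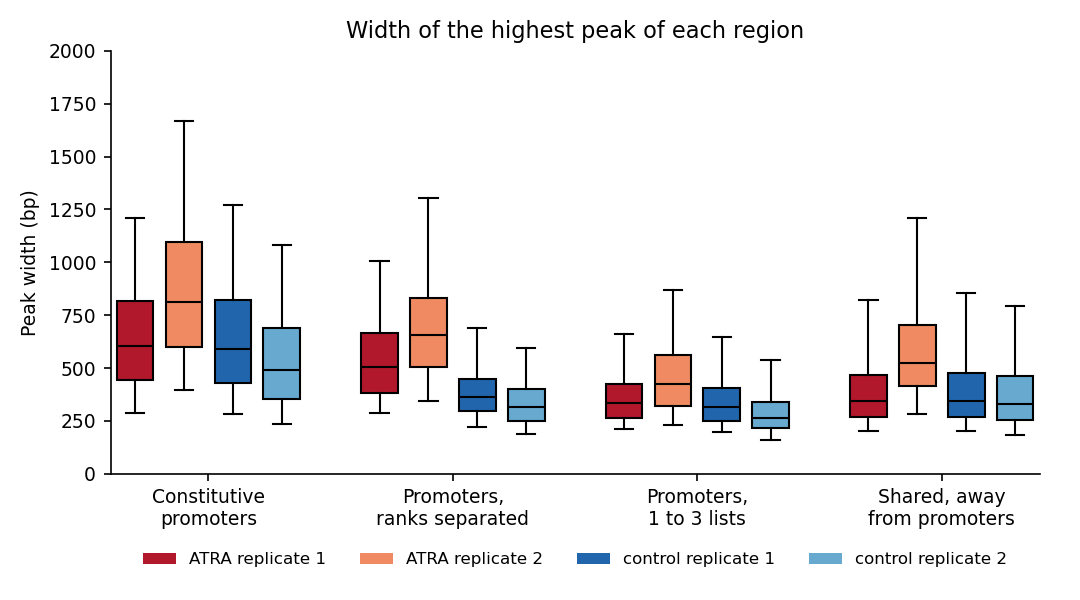
Width of the highest peak (vertical axis, bp) in the same 4 sets of regions, by library, with boxes for quartiles and median and whiskers for the 5th to 95th percentiles over regions. Constitutive promoters are the widest set in every library, with medians from 492 bp in control replicate 2 to 813 bp in ATRA replicate 2.

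Width and rank went together within the members. Sorted by their lowest percentile over the 4 libraries and split into 4 parts of 1533 regions, the median merged width was 644 bp in the lowest part, 808 and 937 bp in the middle parts and 1174 bp in the highest. Members with starts on both strands increased along the same order, from 11.5% to 21.5%. Regions rich in CpG increased from 73.2% to 87.3%, while the median GC content was 66.5% in the lowest part and 64.0% in the highest.

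Most members were CpG-rich. In the 200 bp about the region centre, their median GC content was 65.0% (quartiles 59.0 and 70.5%) and their median CpG observed over expected ratio was 0.833 (0.690 and 0.962). With CpG-rich defined as a GC content of at least 50% and a ratio of at least 0.6, 5012 members (81.7%) were CpG-rich. The share was 76.9% in the 810 promoters with separated ranks, 56.9% in the promoters of 1 to 3 lists and 11.1% in the shared regions away from promoters, whose median ratio was 0.250. The ratio of the promoters in 1 to 3 lists had a broad second mode below 0.5, which was small in the members.

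The same contrast appeared when windows were laid by the annotation alone. In the 200 bp upstream of the gene start, the median CpG ratio was 0.809 for the 6804 genes with a constitutive promoter region, 0.681 for all 19834 protein-coding genes and 0.402 for the 8194 genes with no region of any list within 1 kb of a start. CpG-rich windows made up 72.7%, 53.1% and 32.9% of these genes. Thus 2696 genes had a CpG-rich upstream window and no peak region near any start.

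**Figure D4:**
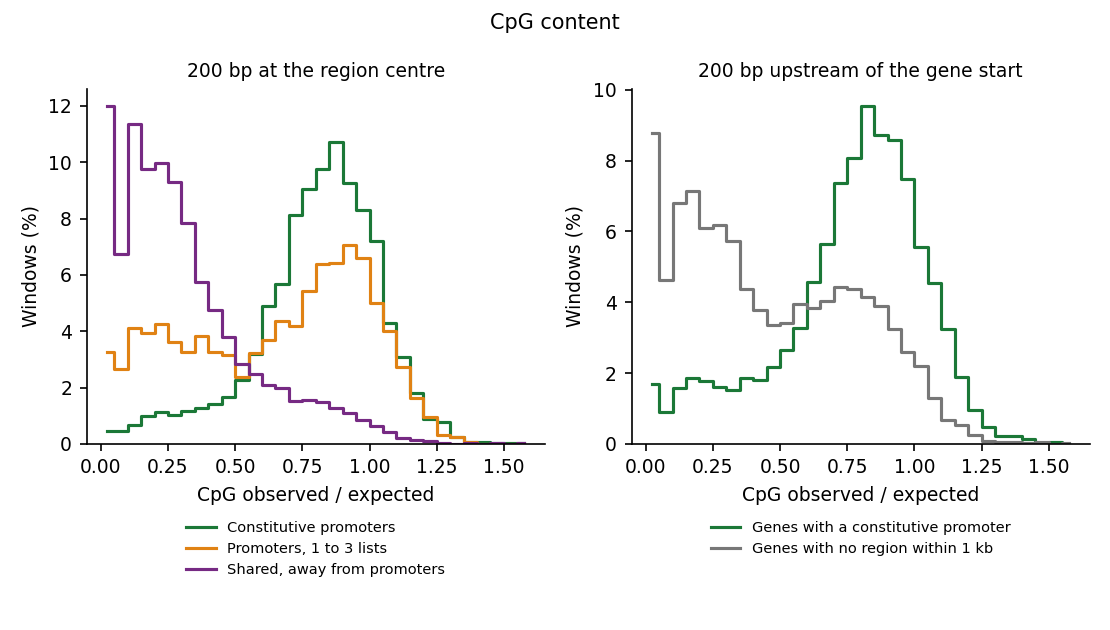
Distribution of the CpG observed over expected ratio (horizontal axis) as percent of windows (vertical axis), in 200 bp at the centre of merged regions on the left and 200 bp upstream of gene starts on the right. Constitutive promoters form a single main mode near their median of 0.833, whereas shared regions away from promoters and genes without a region lie mostly below 0.5.

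The 1120 members that were not CpG-rich ranked lower and were narrower. Their median percentiles were 79.6 and 86.0 in the ATRA libraries and 80.3 and 78.7 in the control libraries, against 89.2, 91.4, 88.1 and 84.1 in the CpG-rich members. Their peaks were 517.5, 798, 523 and 474 bp wide at the median, against 619, 816, 603 and 494 bp. The difference had the same direction in each of the 4 libraries and was smallest in ATRA replicate 2 and control replicate 2 for width. Among the members with extreme ratios, UTRN (utrophin), DOCK8 (an exchange factor of leukocytes) and ZFAND6 (a zinc finger protein) held no CpG in their window. The centre of each of these regions lay in an intron. In ZFAND6 the 120 bases upstream of the outermost annotated start, outside the region, had a CpG ratio of 1.05. DOCK8 ranked at 78.0 and 86.4 in the ATRA libraries and at 79.7 and 90.1 in the control libraries. At the other extreme the CpG ratio was 1.76 in MYOF, 1.59 in CBR4 and 1.53 in FAM168B; the window of MYOF had a GC content of only 24.0%, where a few CpG suffice for a high ratio. CBR4, a mitochondrial carbonyl reductase, stood at the 97.6th percentile or above in every library.

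A start of another protein-coding gene on the opposite strand was common. Starts of at least 2 protein-coding genes on both strands lay within 1 kb of the centre in 983 members (16.0%), against 13.0% of promoters with separated ranks and 8.82% of those in 1 to 3 lists. These members were wider than the others (median merged width 1045 against 861 bp) and ranked higher in every library, with medians of 91.5, 93.2, 90.8 and 88.2 against 87.3, 90.0, 86.3 and 82.2. A wide window about the centre catches more starts in regions of high gene density, and gene density was not compared. The region shared by TCP1, a subunit of the CCT chaperonin, and MRPL18, a mitochondrial ribosomal protein, was 2352 bp wide and ranked above 99 in all libraries.

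Among sequence motifs, the GC box was the most frequent, in 56.8% of members. Its letters read in reverse order, a check on base composition, matched as often (56.9%). A run such as GGGCGGG holds both the box and its reversed letters, GGCGGG, so this check cannot decide for the GC box. The CCAAT box was in 30.9% of members against 13.8% for its reversed letters. The ETS site was in 6.54% (401 members) against 0.946%, the NRF1 site in 2.72% against 0.114%, and the YY1 site (AAGATGGCG) in 2.50% against 0.0652%. For these 4 sites, therefore, the letters in their own order exceeded the reversed letters in the same windows. The cyclic AMP response element matched in 2.12% against 0.212%, the E-box (CACGTG), bound by factors such as MYC and MAX, in 7.42% against 3.21%, and the BANP site in 1.35% against 0.783%. The reversed letters of the ETS site, the cyclic AMP response element and the E-box hold no CpG, and those of the BANP site fewer than the site. For these sites the check does not account for CpG content. In the shared regions away from promoters, which are poor in CpG, the ETS site was in 0.646% against 0.796% reversed. The ZNF143 site matched in 29 members and its reversed letters in none. At least 1 of these 9 motifs was present in 4604 members (75.1%), most often the GC box, and 1528 members held none in the window.

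The positions of the sites differed. Matches to the ETS site had a median position 29 bp upstream of the nearest start, NRF1 matches 53 bp upstream and CCAAT boxes 89.5 bp upstream. Only the 200 bp about the region centre were searched, and the median centre lay 73 bp upstream. GC boxes (79 bp) and E-boxes (74 bp) lay close to it. A position near the centre, such as that of CCAAT boxes, can follow from the window alone, which was not tested. YY1 matches lay 17.5 bp downstream of the start at the median (quartiles 29.5 bp upstream and 29.5 bp downstream). Members with a CCAAT box ranked higher in each library than those without, with medians of 91.5, 93.4, 90.1 and 87.8 against 86.1, 89.5, 85.7 and 81.0. They were narrower at the same time, with a median merged width of 837 against 916 bp. Members with an ETS site did not stand out in rank (88.6, 89.8, 86.5 and 83.1 against 88.1, 90.7, 87.1 and 83.2), and 22.2% of them had starts on both strands, against 15.6% of the rest.

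Read in the 200 bp upstream of gene starts, so that the window did not depend on the peaks, the ETS site was in 6.50% of genes with a constitutive promoter region, 3.42% of all protein-coding genes and 0.696% of genes with no region within 1 kb. The NRF1 site was in 3.00%, 1.84% and 0.586% of these genes, and the CCAAT box in 34.4%, 29.2% and 27.7%. The TATA box went the other way, with 4.44%, 8.09% and 12.3%, but its reversed letters followed it closely (4.81%, 7.59% and 10.5%). Base composition differs between these sets of genes. The ETS site exceeded its reversed letters in the genes with a member (0.603% reversed) but not in the genes without a region (0.915% reversed). Its reversed letters hold no CpG, and the genes without a region had a lower CpG ratio. The check therefore cannot separate the ETS site from CpG content here.

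Sites of blood lineage factors were less frequent in the members than in shared regions away from promoters. The PU.1 site (GAGGAAGT) was in 2.02% of members and 8.37% of those other regions, the CEBP site (TTGCNNAA) in 4.39% and 12.7%, and the RUNX site (AACCACA) in 2.27% and 8.96%. The GATA site (AGATAA or TGATAA) was in 4.32% and 18.8%, the AP-1 site (TGANTCA) in 2.20% and 8.81%, and the CTCF site in 0.897% and 8.74%. Reversed letters reached 1.09% for PU.1, 3.02% for CEBP and 4.91% for GATA in the members, so GATA letters were no more frequent than their reverse, and AP-1 letters little more (1.79% reversed). In the shared regions away from promoters the reversed letters reached 14.0% for GATA and 4.48% for AP-1 but 1.41% for PU.1, 2.33% for CEBP and 2.64% for RUNX. Much of the contrast in GATA and AP-1 letters was therefore shared by their reversed letters. All these shares depend on the length of the window: over the whole merged region, GATA letters were in 31.1% of members and PU.1 letters in 8.02%. In the 1120 members that were not CpG-rich, PU.1 letters were in 4.73%, RUNX letters in 6.25% and CEBP letters in 8.48%, against 1.42%, 1.38% and 3.47% of the CpG-rich members. The 55 members with a CTCF site, which marks insulators, ranked lower than the rest in each library (73.6, 82.3, 74.4 and 75.2) and were narrower, with a median merged width of 590 against 896 bp.

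The members were linked to 6804 of 19834 protein-coding genes (34.3%). A single gene was linked to 5189 members, 2 genes to 898, and 3 or more to 45. Among these genes 313 had 2 or more constitutive regions, and 7 had 3: AKAP13, BRCA1, CHD9, DSE, GNAI2, MRTFA and TMCO1. Of the remaining genes, 754 had a promoter region in all lists that ranked higher in ATRA by 10 points or more, 63 had one that ranked higher in control, 2674 had one in 1 to 3 lists, 1345 had a region within 1 kb whose centre missed the window, and 8194 had none.

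Most genes in the lists of basic cell functions had a constitutive region, in all lists but that of Mediator. Of 79 cytosolic ribosomal protein genes, 58 (73.4%) had a constitutive region, and 13 ranked higher in ATRA by 10 points or more, among them RPLP1, RPS19 and RPL3. Of all protein-coding genes 3.8% were in this state, but that base includes genes with no promoter region in all lists. Of the promoter regions in all lists, 10.5% were in this state. Another 7 ribosomal protein genes were in 1 to 3 lists and 1, RPL12, had a region whose centre missed the window. Of 32 proteasome subunit genes, 26 were members, 3 ranked higher in ATRA and 3 were in 1 to 3 lists. Members were 25 of 33 translation initiation factor genes, 20 of 26 genes of small nuclear ribonucleoprotein splicing factors, 15 of 20 cytosolic aminoacyl-tRNA synthetase genes and 24 of 37 respiratory complex I genes. They were also 8 of 12 RNA polymerase II subunit genes and 15 of 30 Mediator subunit genes. For POLR2A, which encodes the largest subunit of the polymerase, no region centred in the start window held peaks from all lists. All of these shares, from 50.0% to 81.3%, lay above the 34.3% of all genes. No gene of these lists ranked higher in control by 10 points or more, a state found in only 0.318% of all genes.

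The CCT chaperonin, which folds actin and tubulin, had 7 of 8 subunit genes among the members, all but CCT4. Their regions had median percentiles of 96.9 and 97.8 in the ATRA libraries and 96.4 and 95.0 in the control libraries. These were the highest medians of the 15 lists in every library but control replicate 2, where the aminoacyl-tRNA synthetase regions reached 96.7. The median merged width of the CCT regions was 1429 bp. Of these 7 regions, 71.4% had starts on both strands, and so had 58.3% of the 24 complex I regions, against 16.0% of all members. These lists are small, and 7 or 24 regions give only a coarse share.

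**Figure D5:**
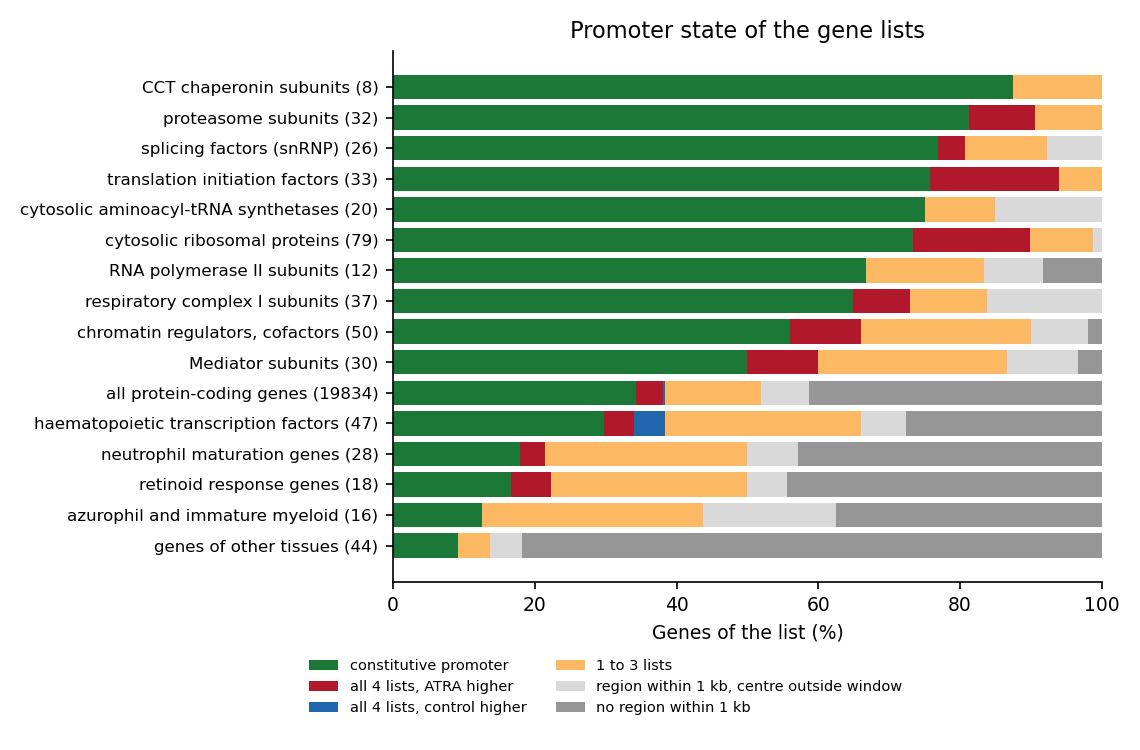
Promoter state of the genes of 15 lists and of all protein-coding genes (number of genes in brackets), as percent of the list. Constitutive promoters make up 50.0% to 87.5% of the lists of basic cell machinery, 56.0% of chromatin regulators, 34.3% of all genes and 9.09% to 29.8% of blood, retinoid and other tissue lists.

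The members with the highest ranks of these lists stood near the top in every library. SF3B6 stood at 99.7 and 99.8 in the ATRA libraries and at 99.9 and 99.8 in the control libraries. LARS1 stood at 99.4, 99.6, 99.5 and 99.6, and MED19 at 99.8, 99.6, 99.4 and 99.4. PSMA5 stood at 98.4, 98.6, 98.2 and 98.4. RPS3A, a protein of the small ribosomal subunit, stood at 98.5, 98.2, 97.0 and 98.6, and NDUFA5 at 98.4, 99.2, 97.9 and 98.9. These genes were picked for high ranks in all libraries, so the closeness of their values follows from the choice. Other members of the same lists varied more, down to a percentile of 3.40 for a ribosomal protein gene in control replicate 1, 7.69 for a proteasome gene in control replicate 2 and 3.83 for a Mediator gene in control replicate 2. The peaks of the leading genes differed in width: 824, 1065, 799 and 789 bp in PSMA5, and 717, 1085, 773 and 810 bp in NDUFA5, with ATRA replicate 2 widest in both.

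Of 50 genes of chromatin regulators and nuclear receptor cofactors, 28 (56.0%) were members, including EZH2, EED and SUZ12, which form the core of Polycomb repressive complex 2. CHD8, a chromatin remodeller, ranked at 99.5, 99.4, 98.6 and 99.5, and the deacetylase HDAC2 at 97.2, 98.2, 99.0 and 98.2. Another 5 of the list ranked higher in ATRA by 10 points or more (SMARCA4, KMT2A, SETD1A, DNMT3A and KDM5A), and 12 were in 1 to 3 lists. The state of these 5 was found in 3.8% of all genes, which include genes with no region, and in 10.5% of promoter regions in all lists.

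Transcription factors of blood cells were members in 14 of 47 (29.8%), a share below that of all genes. STAT3, a mediator of cytokine signals, had the highest ranks of these, with 97.7 and 98.9 in ATRA and 93.2 and 97.0 in control. SPI1, which encodes PU.1, ranked at 60.0 and 84.4 in ATRA and at 90.3 and 83.7 in control. CEBPE, a driver of granule gene expression in late granulocytes, ranked at 15.5 and 89.7 in ATRA and at 70.9 and 10.1 in control. CEBPE was thus a member because replicates of each group stood far apart, not because its rank was steady. The region of MYC, on chromosome 8, was the widest of all members at 6555 bp, with peaks of 4375 and 6286 bp in ATRA and 6555 and 6219 bp in control. MYC is known to be amplified in HL-60 cells, and copy number was not measured here. Only 8 of the 14 regions (57.1%) were CpG-rich, against 81.7% of all members.

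Genes of the myeloid programme that ATRA engages were seldom members. Of 28 neutrophil maturation genes 5 (17.9%) were, against 34.3% of all genes, among them NCF4, FCGR2A, CXCR2 and LYZ. None of these 5 regions was CpG-rich. No region of any list lay within 1 kb of a start in 12 of the 28 genes. A region ranking higher in ATRA by 10 points or more was found for 1 gene, against 3.8% of all genes. NCF4, which encodes a cytosolic subunit of the phagocyte NADPH oxidase, stood at 31.3 and 62.6 in ATRA and at 66.2 and 59.8 in control. FCGR2A, an Fc receptor for immunoglobulin G, stood at 53.4 and 85.5 in ATRA and at 73.8 and 73.8 in control. CXCR2, a chemokine receptor of neutrophils, stood at 79.6 and 89.8 in ATRA and at 76.1 and 27.8 in control. LYZ, which encodes lysozyme, stood at 56.5 and 80.4 in ATRA and at 49.5 and 5.13 in control. In CXCR2 and LYZ the ATRA percentiles lay above both control percentiles by 3.53 and 7.01 points, less than the distance between the replicates of either group.

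Of 16 azurophil granule and immature myeloid genes, 2 (12.5%) were members and 6 had no region within 1 kb. CTSG, which encodes cathepsin G, ranked at 8.67 and 82.1 in ATRA and at 64.1 and 72.0 in control, and CSF2RA, a subunit of the GM-CSF receptor, at 27.5 and 65.8 in ATRA and 11.9 and 41.3 in control. In both, the ATRA replicates lay further apart than the control replicates and the ranges of the groups overlapped. Among 18 retinoid response genes 3 (16.7%) were members, among them TNFSF10 (the death ligand TRAIL) and ASB2, a ubiquitin ligase subunit. Another 8 of these genes had no region within 1 kb. ASB2 stood at 64.8 and 80.8 in ATRA and at 78.1 and 71.0 in control. TNFSF10 stood at 83.5 and 91.4 in ATRA and at 65.8 and 79.9 in control. RARA, which encodes the retinoic acid receptor alpha, was in all lists but ranked higher in ATRA and so was no member.

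Of 44 genes typical of other tissues, 4 were members and 36 had no region within 1 kb. MBP, known from myelin, ranked at 80.3, 80.9, 76.6 and 84.7, and its region lay in an intron, at an alternative start. TTR (transthyretin of the liver) had its centre 841 bp upstream of the start and ranked at 53.7, 84.8, 56.9 and 82.5. The region of CD8A, a T cell coreceptor, held a CTCF site and ranked at 61.5, 82.3, 60.3 and 73.0, and COL1A1, a collagen, ranked at 42.0, 72.3, 18.8 and 44.4. Such regions were assigned by position only, and need not act on the gene named.

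Gene families sorted by name gave a similar order. Among families of at least 40 genes, members were 78.8% of RPL genes, 71.4% of the mitochondrial ribosomal MRPL genes, 65.9% of UBE genes of ubiquitin conjugation and 57.1% of ZBTB zinc finger genes, against 31.4% of 512 ZNF genes. Of 391 olfactory receptor genes 2 were members, and of the 40 DEFB, 55 KRT and 94 KRTAP genes none was.

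Ordered by the lowest of their 4 percentiles, the highest members were FAM72D, the shared region of CDCA2 and KCTD9, G3BP1, ZBTB20 and PPM1B. G3BP1, a core protein of stress granules, ranked at 99.9 in each library, and so did ZBTB20, a transcriptional repressor. PPM1B, a protein phosphatase, ranked at 99.9, 99.95, 99.9 and 99.9. FAM72D has near-identical copies elsewhere in the genome, and how reads with several matching places were treated is not given in the sources used here, so its rank of 99.9 or more in every list is uncertain.

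Ordered by the highest of their 4 percentiles, the lowest members were USP7, GPATCH3, MAML3, TBC1D10A and PHF19. The region named for USP7, a deubiquitinase, lay at an alternative start and ranked at 8.67 and 12.2 in ATRA and at 7.66 and 12.5 in control. GPATCH3 ranked at 16.5 and 21.3 in ATRA and at 10.2 and 7.11 in control, although its window was CpG-rich and held CCAAT, YY1 and BANP letters. PHF19, a Polycomb-like protein, ranked at 19.8, 13.5, 12.9 and 27.3. These are weak peaks that every list still contained.

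Beside MYC, the widest members by their narrowest peak were H3C15 and GOLIM4. The merged region of H3C15 spanned 4209 bp with peaks of 2199, 4209, 2240 and 2213 bp, and GOLIM4, a Golgi protein, had peaks of 1949, 2293, 2233 and 2123 bp. The narrowest were MTRNR2L6, RILP and TSR1. TSR1, a ribosome assembly factor, had peaks of 250, 239, 196 and 214 bp and ranked at 52.0 and 5.74 in ATRA and at 29.3 and 6.33 in control. MTRNR2L6 lies in a nuclear copy of mitochondrial sequence; its peaks of 151 to 221 bp ranked between 84.4 and 91.2, and reads from mitochondrial DNA can match there, which was not tested.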

How the data were processed

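ATAC-seq was done on 4 HL-60 libraries, 2 ATRA and 2 control. Per the sources used here, the authors trimmed reads with cutadapt, aligned them to hg19 with Bowtie2 and called peaks for each library with MACS2; the Tn5 shift, duplicate removal, blacklist and treatment of multiply matching reads are not given in the sources used here. The deposited files list peaks with a score whose scale is not stated, from 50 to 3100, so the score was used only as a percentile within its list. Read depth is unknown, and the number of libraries limits the precision.

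Peaks were merged where they overlapped or touched, and the highest peak of each library gave its rank and width. Starts were the 78582 of protein-coding transcripts in GENCODE release 44 lifted to hg19. Sequence was read from GRCh37 with pysam 0.24.0; composition and 16 motifs used 200 bp about the centre, and both strands means within 1 kb. Scripts ran in Python 3.11.15 with pandas 2.3.3, scipy 1.17.1 and samtools 1.23.1. The selection was run on simulated peaks whose scores did not vary between replicates, which checks the code only. All 480 entries of the 15 gene lists matched the annotation. Members and lists were chosen with earlier results of these data known. Named genes were the extremes of rank, width and CpG ratio, those next to the rank limit, the 2 highest of each list, members of lists with few blood, retinoid or other tissue members, and markers; further list genes are named only for their state. No test was made. Some genes and sequences under these rules are not reported here.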

Additional observations from a re-analysis of the deposited data

How the results depend on the processing

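No paired analysis was possible because no value here comes from a test. The number of regions and of genes stayed within 1.5 times of 6132 and 6804 under all 14 alternatives that could change them, from 4089 regions and 4582 genes with 1 start per gene to 6942 regions and 7621 genes with no rank condition. With a library left out, the number of regions ran from 4723 (without control replicate 1) to 6072 and of genes from 5295 to 6741.

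The median merged width ran from 756 bp, without ATRA replicate 2, to 908 bp with a library left out. The median GC content ran from 64.0% to 65.5% with a library left out, and was 61.3% over the whole region and 64.0% in 500 bp. The median CpG ratio was 0.847 with 1 start per gene and 0.847 with the centre taken from the highest peaks, 0.779 over the whole region and 0.814 in 500 bp, and ran from 0.818 to 0.844 with a library left out. The share with starts on both strands was 18.7% with 1 start per gene, 15.1% with a window of 500 bp each way and 17.3% in the upper part of each list. The alternative of basic GENCODE transcripts, chosen after seeing the data, gave 5887 regions. Of 256 motif shares recomputed, 51 left the 95% interval of the reported share, 46 of them upwards, mostly in the longer sequence windows, which hold more letters: over the whole region the CCAAT box was in 66.9% of members, GATA letters in 31.1%, AP-1 letters in 13.6% and PU.1 letters in 8.02%.

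The lists give no read depth, so a region missing from a list cannot be told apart from one below its threshold, and 2 replicates per group give only a coarse spread. The list of ATRA replicate 2 holds more and wider peaks than the others.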
